A study of Mus musculus with 16 samples.

Results

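Samples of bone marrow-derived macrophages (BMDMs) given tumor conditioned medium (CM) together with ruxolitinib are described here, 5 of the 16 samples in the series. They are the 2 samples whose label reads 2 h (replicates 2 and 3) and the 3 samples whose label reads 4 h (replicates 1, 2 and 3), and both groups were chosen by these labels alone. BMDMs are obtained by culturing bone marrow cells until they become macrophages, here from Balb/c wild-type mice aged 8 weeks. The CM came from 4T1 cells, a mouse mammary tumor line, and carries the soluble factors that these cells release. All 5 samples received 0.5 μM ruxolitinib (Rux), an inhibitor of JAK1 and JAK2. Before CM the cells were kept without serum for 2 h, and the drug was added during that step. The study's text gives 1 treatment time for RNA, 4 h, and does not say what the 2 h label counts from. No sample labelled 2 h lacks ruxolitinib, so the effect of the drug at that time was not measured, and a difference in time cannot be told apart from any other difference that goes with the label. The 2 samples of DMEM, medium without tumor factors, serve as the reference level. They also lack the drug, and their labels give no time. A difference from DMEM therefore joins CM, ruxolitinib and any difference in time, which cannot be told apart. Samples of DMEM with ruxolitinib exist in the series but are not used as the reference. The 3 samples of CM without the drug are given beside some genes. The labels do not say whether samples of a group came from separate cultures or mice. The p-values therefore measure only the spread between samples of a group, estimated over all 6 groups of the series, and this spread may be technical. Cultured BMDMs are also not tumor macrophages, and in a bulk sample a fall in RNA per cell cannot be told apart from fewer cells of a type.

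Macrophages that meet an inflammatory stimulus change their RNA in waves. Immediate-early genes need no new protein, rise first and usually fall again, partly through short-lived mRNAs and through inhibitors that the same stimulus induces. Later waves hold cytokines, enzymes and metabolic genes that depend on chromatin opening or on factors made in the first wave. JAK kinases carry the signal of interferons and many cytokines to STAT factors, and NF-κB is a separate route to inflammatory genes.

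The deposited values are counts of fragments per gene. The 12372 genes tested are those above 1 CPM, a count relative to the total of its sample, in at least 2 of the 16 samples. Levels are CPM scaled by relative log expression. Differences are log2 fold changes, 2 h minus 4 h, from the quasi-likelihood test of edgeR, and a gene is called at a Benjamini-Hochberg adjusted p-value under 0.05 if its log2 fold change lies above 0.5 or below -0.5. The 2 h samples hold 40752686 and 19135435 counted fragments and the 4 h samples 38450593, 46215853 and 20706611, which lies within the range of the whole series. The share of mitochondrial fragments was 0.786% to 0.861% in the 5 samples. All 8 macrophage markers looked at were detected in every sample, with a summed level of 51956 to 57230 CPM at 2 h and 46371 to 56271 CPM at 4 h. Markers of the 4T1 epithelium reached at most 0.943 CPM in sum and those of neutrophils at most 0.864 CPM. Among T and NK cell markers only Lck was above 3 counts in every sample, and the list summed to between 1.67 and 2.69 CPM. Markers of mast cells and erythroid cells were at most 0.102 CPM each in sum.

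The samples labelled 2 h differed from those labelled 4 h in 1556 genes that were higher at 2 h, which is 12.6% of the genes tested, and in 1327 genes that were higher at 4 h, 10.7%. The median log2 fold change was 0.94 among the former and -0.81 among the latter, against -0.03 over all genes. Beyond a log2 fold change of 1 were 703 genes higher at 2 h and 466 higher at 4 h, and beyond 2 were 148 and 84. Both 2 h samples lay above every 4 h sample in 1550 of the 1556 genes, where 28.5% of all genes tested did so. Both lay below every 4 h sample in 1323 of the 1327, where the share of all genes was 31.2%. The calls were made on these same samples, so this separation largely follows from the calls and is not further evidence. With scaling by total counts alone the split turned, to 1339 genes higher at 2 h and 1704 higher at 4 h, or 44.0% of the calls in place of 54.0%.

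**Figure D1:**
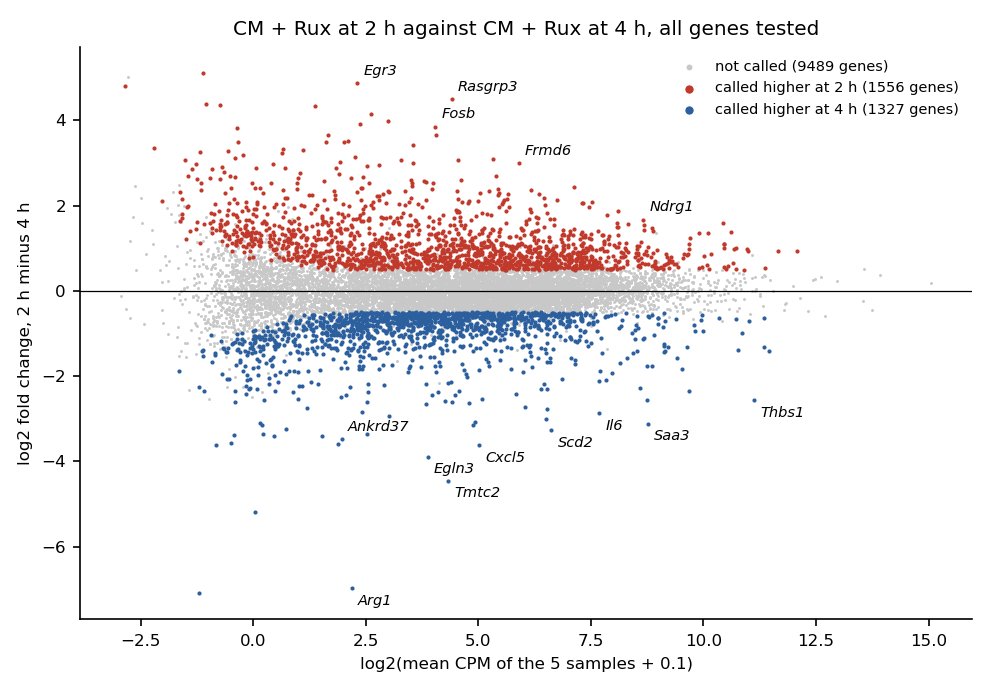
Each point is 1 of the 12372 genes, with the mean level of the 5 samples on the horizontal axis, as log2 of CPM plus 0.1, and the log2 fold change, 2 h minus 4 h, on the vertical axis. Genes called higher at 2 h (1556, red) include Egr3 and Rasgrp3 at the top, and genes called higher at 4 h (1327, blue) reach down to Arg1, whose fitted value rests on a 2 h group near 0.

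In a principal component analysis of all 16 samples the first component, with 69.6% of the variance, ran from DMEM to CM. On it the 2 h samples lay at 22.9 and 18.0, between DMEM at -71.8 and -84.7 and the 4 h samples at 45.7 to 55.7. The second component, with 11% of the variance, set the 2 h samples apart at 53.5 and 62.9, while all other samples lay between -19.6 and 2.2. The 2 h samples therefore lay between DMEM and the 4 h samples on the first component and apart from both on the second.

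**Figure D2:**
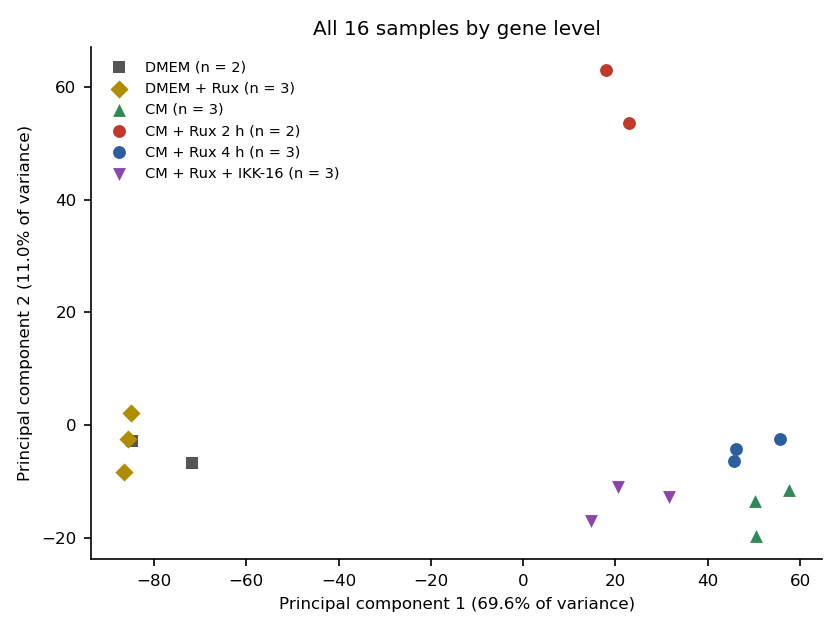
All 16 samples are placed by the first 2 principal components of gene levels, with 1 symbol for each sample and 1 colour for each of the 6 groups. The 2 samples of CM + Rux 2 h (red circles) have first-component values between those of DMEM and CM + Rux 4 h and are the only samples with second-component values above 2.2.

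To separate early transient genes from late ones, each called gene was also compared with DMEM. At 2 h 2080 genes (16.8%) were higher and 2532 (20.5%) lower than in DMEM, and at 4 h 2519 (20.4%) were higher and 2865 (23.2%) lower. These comparisons share samples with the one between 2 h and 4 h, so the patterns that follow are a description of calls and not independent evidence. Of the genes higher at 2 h than at 4 h, 425 (27.3%) were also above DMEM at 2 h and form the early transient genes, or peak at 2 h. A further 877 did not pass the test against DMEM at 2 h (late fall), and 254 were already below DMEM at 2 h (falling in both steps). Of the genes higher at 4 h, 529 did not pass against DMEM at 2 h (late rise), 187 were above DMEM at 2 h (rising in both steps) and 611 (46.0%) were below DMEM at 2 h (trough at 2 h).

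The 425 genes with a peak at 2 h had a median log2 fold change from DMEM of 1.52 at 2 h and 0.55 at 4 h. At 4 h 215 of them were still above DMEM, 195 did not differ from it beyond the thresholds and 15 were below it. The 611 genes with a trough had a median of -1.12 at 2 h and -0.28 at 4 h, where 394 were not called against DMEM, 196 were still below it and 21 were above it. Of the late fall genes 733 were called below DMEM at 4 h and 144 were not called against it. Of the late rise genes 350 were called above DMEM at 4 h and 179 were not called against it. Genes rising in both steps had the largest medians, 1.67 at 2 h and 2.95 at 4 h. Scaling and threshold both changed the size of the patterns. Relative log expression moved the median of all genes by 0.36 at 2 h and 0.29 at 4 h against DMEM compared with total counts. Under total counts the peak held 287 genes and the trough 1029, and beyond a log2 fold change of 1 they held 150 and 158. Without 2 h replicate 2 the pattern of falling in both steps held 154 genes.

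**Figure D3:**
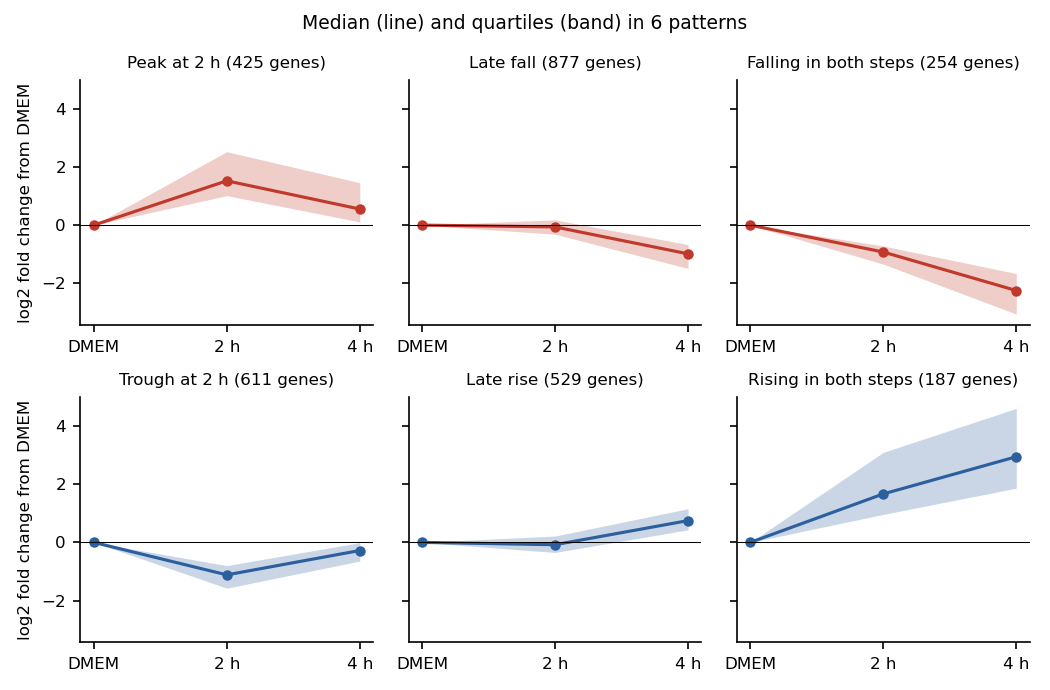
The 6 panels give the log2 fold change from DMEM (vertical axis) at 2 h and at 4 h for the genes of each pattern, with the median as a line and the range between the quartiles as a band. The upper panels hold genes higher at 2 h than at 4 h and the lower panels genes higher at 4 h, and the median of the peak genes goes from 1.52 at 2 h to 0.55 at 4 h.

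Immediate-early transcription factors and their relatives split at the 2 times. Of 31 tested, 12 were higher at 2 h (38.7%) and 5 higher at 4 h (16.1%), with a median log2 fold change of 0.52. The counts of this and the other lists are to be read against 12.6% and 10.7% of all genes tested. Egr3 (ENSMUSG00000033730, chr14:70077203-70082614 in GRCm38), a zinc finger factor induced by growth and antigen signals, was at 10.4 and 12.7 CPM at 2 h and at 0.216, 0.605 and 0.305 CPM at 4 h. It was at 2.3 and 2 CPM in DMEM, so the 2 h samples lay above both other groups and the 4 h samples below DMEM. Its log2 fold change of 4.87 (SE 0.40, adjusted p = 1.2e-06) was the largest of the genes that the rule for names allows.

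Fosb (ENSMUSG00000003545, chr7:19302696-19310051), a member of the AP-1 family, was at 50.02 and 24.4 CPM at 2 h, at 3.37, 3.07 and 0.966 CPM at 4 h and at 0.148 and 0.204 CPM in DMEM. The 2 h replicates differed from each other, yet both lay above every 4 h sample (log2 fold change 3.85, SE 0.43, adjusted p = 1.8e-05). Nr4a3 (chr4:48045153-48086447), an orphan nuclear receptor, was at 144 and 121 CPM at 2 h, 41.7, 47.9 and 30.1 CPM at 4 h and 0.413 and 0.123 CPM in DMEM (log2 fold change 1.73, adjusted p = 0.00013). It had therefore fallen between the labels but was still far above DMEM at 4 h.

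Egr1, the best-known member of the Egr family, was low throughout, with 9.66 and 11.7 CPM at 2 h and 1.67, 1.43 and 1.98 CPM at 4 h (log2 fold change 2.67, adjusted p = 1.9e-06). Egr2 (1.33), Klf2 (1.67), Ier2 (1.08), the small GTPase gene Gem (1.05) and Bhlhe40 (0.80) were also called higher at 2 h. Fos went the other way, although it encodes the founding member of the family of Fosb. It was at 184 and 57.1 CPM at 2 h and 321, 525 and 335 CPM at 4 h, with no overlap (log2 fold change -1.70, SE 0.41, adjusted p = 0.0048). Jun, its partner in AP-1, was likewise higher at 4 h (-1.26, adjusted p = 6.2e-05), as were the stress factor Atf3 (-1.37) and Per1 (-1.04). At 4 h Atf3 (mean 117 CPM) was still below its DMEM level (mean 278 CPM). The list had only 3 members called higher at 4 h once 2 h replicate 3 was left out.

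NF-κB subunits and inhibitors leaned to 2 h, with 5 of 19 called higher at 2 h, 0 at 4 h, and a median of 0.34. Rel (chr11:23736847-23770970), which encodes the c-Rel subunit, was at 609 and 570.4 CPM at 2 h, 351, 305 and 269.7 CPM at 4 h and 97.9 and 79.6 CPM in DMEM (log2 fold change 0.93, SE 0.13, adjusted p = 9.2e-05). The inhibitors Nfkbib (0.82), Nfkbid (0.67) and Nfkbia (0.51) and the feedback gene Tnip1 (0.54) completed the 5. With scaling by total counts alone 3 members were called higher at 2 h and 1 at 4 h. DESeq2 and a fit of only the samples compared also called 1 member higher at 4 h. All 5 were above DMEM at both times, Nfkbib by a log2 fold change of 2.71 at 2 h and 1.89 at 4 h.

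The promoters of Fosb and Rel are shown because both genes peak at 2 h and hold a match to the NF-κB consensus, which is given in capitals. They are RefSeq windows of GRCm38.p6 from 250 bases before to 50 after the start site, on the minus strand at chr7:19309996-19310295 and chr11:23770920-23771219.
Fosb: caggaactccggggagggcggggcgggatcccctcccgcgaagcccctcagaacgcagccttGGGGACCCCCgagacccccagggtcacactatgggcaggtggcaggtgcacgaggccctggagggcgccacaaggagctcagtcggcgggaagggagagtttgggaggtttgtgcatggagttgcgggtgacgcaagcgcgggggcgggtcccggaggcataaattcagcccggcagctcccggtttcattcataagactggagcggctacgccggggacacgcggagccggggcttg
Rel: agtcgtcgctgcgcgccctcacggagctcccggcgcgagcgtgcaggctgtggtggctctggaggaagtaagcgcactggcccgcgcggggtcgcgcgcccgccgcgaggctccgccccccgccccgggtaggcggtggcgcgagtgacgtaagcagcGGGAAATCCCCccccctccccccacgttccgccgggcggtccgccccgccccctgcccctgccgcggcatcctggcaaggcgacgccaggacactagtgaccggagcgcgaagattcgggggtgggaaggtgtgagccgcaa
Counted from the start site as 0, the match lies at -188 to -179 in Fosb, and 2 overlapping matches in Rel lie at -92 to -83 and -91 to -82. A match on either strand was found in 10.2% of the 9171 matched promoters, so it is common, and binding was not measured. Of the genes tested 74.1% matched a promoter in the table used, so shares over called genes or lists would leave genes out, and none are given. Egr3 has no entry.

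Brakes on signalling, which include phosphatases of MAP kinases (Dusp), Sprouty proteins and SOCS proteins, had calls in both directions. Of 23 tested, 9 were called higher at 2 h (39.1%) and 3 at 4 h (13%), 11 were not called, and the median was 0.80. With a replicate block, a term for the replicate number in the same model, 5 were called higher at 4 h. Dusp7 was at 95.1 and 90.1 CPM at 2 h, 16.9, 32.9 and 21.3 CPM at 4 h and 21.3 and 26.8 CPM in DMEM, which is a transient rise back to the reference level (log2 fold change 1.96, SE 0.29, adjusted p = 0.00018). Dusp14 was at 20.4 and 10.4 CPM at 2 h and 1.48, 6.41 and 1.02 CPM at 4 h (log2 fold change 2.32, SE 0.70, adjusted p = 0.018), and its 4 h replicates were themselves widely spread. Its adjusted p was 0.16 without 2 h replicate 2, 0.064 without 4 h replicate 1, 0.055 without 4 h replicate 3 and 0.055 with DESeq2. Dusp5 (1.21), Trib1 (1.17), Spry1 (1.15), Spred1 (0.96), Spred2 (0.99), Rgs1 (1.21) and Cish (0.80) were the other 7. Without 4 h replicate 1 only 5 brakes were called higher at 2 h, without 2 h replicate 2 the median was 0.36, and without 2 h replicate 3 the adjusted p of Rgs1 was 0.057.

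Socs1, a feedback inhibitor of JAK kinases, was higher at 4 h, with 4.83 and 3.79 CPM at 2 h, 14.6, 16.5 and 14.4 CPM at 4 h and 0.886 and 0.94 CPM in DMEM (log2 fold change -1.80, SE 0.15, adjusted p = 1.2e-06). Cish, another SOCS family gene and a known STAT5 target, went the opposite way, from a mean of 113 CPM at 2 h to 64.7 CPM at 4 h, so this family did not move together. Dusp6 (-1.17) and Dusp16 (-0.96) were the other brakes higher at 4 h. Among 16 targets of STAT5 and STAT3, 2 were called higher at 2 h (12.5%, near the share of all genes) and 3 at 4 h, the replicate block gave 5 at 4 h, and leaving out 1 sample gave 1 to 4 at 2 h and up to 5 at 4 h, the latter without 2 h replicate 2. Of these Bcl2l1, which encodes the survival protein BCL-XL, was at 242 and 261 CPM at 2 h, 75.6, 116 and 99.2 CPM at 4 h and 85.6 and 132 CPM in DMEM.

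Cytokines and growth factors were divided evenly, with 5 of 27 called higher at each time and a median of 0.12. Csf2 (chr11:54247271-54249667), which encodes GM-CSF, was at 3.89 and 7.59 CPM at 2 h and 0.916, 0.75 and 1.22 CPM at 4 h, and at or below 3 counts in DMEM (log2 fold change 2.59, SE 0.46, adjusted p = 0.00063). Against 3 counts in the shallower DMEM library it was at least 46.8-fold higher than DMEM at 2 h and at least 7.84-fold higher at 4 h. In CM without the drug its mean was 0.0618 CPM. Tnfsf9 (the ligand of 4-1BB, 1.70), Il15 (1.55), Lif (1.38) and Pdgfa (0.79) were the other early ones. Only 3 cytokines were called higher at 2 h and 2 at 4 h without 2 h replicate 3, and the adjusted p of Tnfsf9 was 0.079. Without 4 h replicate 2, 3 were called higher at 4 h.

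Il6 was the cytokine with the largest difference toward 4 h, at 50.1 and 35.7 CPM at 2 h and 251, 439 and 252 CPM at 4 h (log2 fold change -2.87, SE 0.58, adjusted p = 0.0028). No fragment of Il6 was counted in DMEM, so the rise over DMEM was at least 349-fold at 2 h and at least 2558-fold at 4 h. Inhba, a subunit of activins, was at 10.3 and 9.22 CPM at 2 h and 29.6, 56.4 and 26.5 CPM at 4 h (-1.94, adjusted p = 0.0011). Vegfa (-1.41), Il1a (-1.39) and Il1rn (-0.98) were higher at 4 h as well. Tnf, the prototype of early cytokines, did not pass the test (0.44, adjusted p = 0.38), with 495 and 847 CPM at 2 h and 394, 577 and 516 CPM at 4 h.

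The genes with the largest peaks were not all signalling genes, and they are named by a rule added after the data were seen. Frmd6 (chr12:70825514-70902234), a FERM-domain protein of the Hippo pathway, was at 125 and 125 CPM at 2 h, 15.8, 17.1 and 14 CPM at 4 h and 14.3 and 18 CPM in DMEM. Its 2 h replicates were almost equal, and its level at 4 h did not differ from DMEM beyond the thresholds (log2 fold change 2.99, SE 0.14, adjusted p = 3.6e-08). E2f8, a repressor of the cell cycle, was at 21.6 and 41.1 CPM at 2 h and 4.5, 5.44 and 6.3 CPM at 4 h, and its relative E2f2 at 31.6 and 24.7 and 3.26, 6.9 and 4.02 CPM. Sele (E-selectin, 2.54), Icam5 (2.64), Fam83g (2.42) and the transcription factor Zbtb46 (2.41) had smaller levels, with means of 3.76, 3.83, 1.98 and 10.1 CPM at 2 h. Icam5 and Fam83g were below 1 CPM in every 4 h, DMEM and CM sample, and Sele was at most 1.1 CPM there. Among these groups the 3 genes thus met the filter on level mainly through the 2 h samples, where they are high, so their peaks are not independent of it.

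Among abundant genes, picked after their values were seen, the adhesion gene Icam1 went from a mean of 2329 CPM at 2 h to 768 CPM at 4 h, with 245 CPM in DMEM, and the syndecan gene Sdc4 from 2464 to 945 CPM, with 207 CPM in DMEM. Both were called (Icam1 1.6, adjusted p = 0.00017, and Sdc4 1.38, adjusted p = 0.0039). Bcl2l11, which encodes the pro-apoptotic BIM, was at 397 and 501 CPM at 2 h and 162, 139 and 143 CPM at 4 h (1.6, adjusted p = 5.1e-07). Of 14 survival and DNA damage genes it was 1 of 3 called higher at 2 h, with the caspase-8 inhibitor Cflar (0.56) and Gadd45b (0.71), and Pim3 was called higher at 4 h (-0.58). The value of Cflar was 0.47 and below the threshold without 2 h replicate 3, and without 2 h replicate 2 the adjusted p of Pim3 was 0.058.

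**Figure D4:**
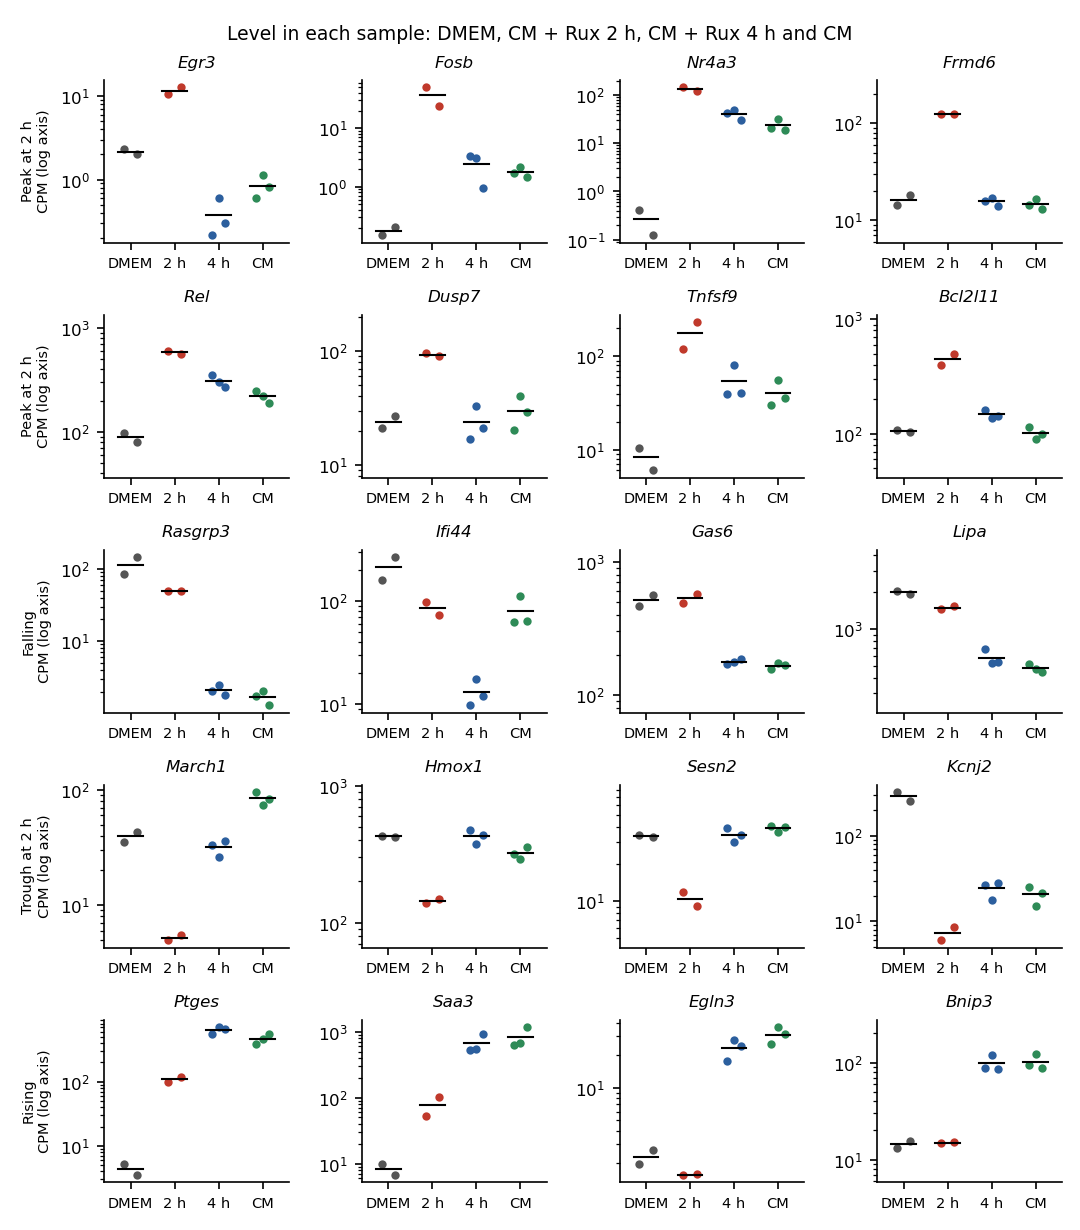
Each panel gives 1 gene's level in CPM (log axis) in the samples of DMEM, CM + Rux 2 h, CM + Rux 4 h and CM, with 1 point for each sample and a bar at the mean. The first 2 rows show peaks at 2 h, the third row genes that fall, the fourth row troughs at 2 h and the fifth row genes that rise. In all 20 panels the 2 h samples lie apart from every 4 h sample, which the rule that named these genes required.

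Most genes higher at 2 h were not called above DMEM there. Rasgrp3 (chr17:75435896-75529054), an activator of Ras and Rap, was at 83.8 and 144 CPM in DMEM, 49.3 and 49.7 CPM at 2 h and 2.08, 2.49 and 1.83 CPM at 4 h (log2 fold change 4.51, SE 0.23, adjusted p = 4.6e-08). It had fallen from DMEM by 1.20 on the log2 scale at 2 h and by 5.71 at 4 h. Dkk2 (4.34), Tmem154 (3.92), Ldlrad3 (3.66), the transporter genes Slco2b1 (3.66) and Slc46a3 (3.50), Etl4 (3.49), Gpr176 (3.33) and Cmah (3.30) were also higher at 2 h than at 4 h, and of these Ldlrad3, Slc46a3 and Etl4 were called below DMEM at 2 h. The RNA-binding Mex3b (3.51) was at 5.6 and 13.1 CPM at 2 h and 3.37 and 5.15 CPM in DMEM, which did not pass the test (1.12, adjusted p = 0.066), and Chn2 (3.42) was above DMEM at 2 h by 0.94.

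Interferon targets were among the falling genes. Of 47 tested, 14 were higher at 2 h and 2 higher at 4 h, with a median of 0.41 between the labels and medians from DMEM of -1.65 at 2 h and -2.02 at 4 h. Ifi44 was at 159.8 and 266 CPM in DMEM, 97.4 and 73.7 CPM at 2 h and 9.76, 17.7 and 11.9 CPM at 4 h (log2 fold change 2.70, SE 0.31, adjusted p = 2.3e-05). Oas3, which makes the activator of RNase L, was at 99.2 and 156 CPM in DMEM, 50.3 and 38.4 CPM at 2 h and 7.71, 11.7 and 6.2 CPM at 4 h. In CM without the drug Ifi44 had a mean of 79.6 CPM and Oas3 of 65.1 CPM. Only 9 targets were called higher at 2 h without 2 h replicate 2.

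Ifi44l was higher at 2 h as well (3.99, adjusted p = 4.7e-06), and so was Irf1 (1.42), which unlike most of the list peaked at 2 h, with means of 81.3, 189 and 70.6 CPM in DMEM, at 2 h and at 4 h. Ifit3 and Ifit2 had most of their fall behind them at 2 h, with Ifit3 at 33.8 and 74.3 CPM in DMEM, 1.93 and 1.63 CPM at 2 h and 0.162, 0.46 and 0.407 CPM at 4 h. Fragments shared by near-identical copies were not counted, which makes levels in the Ifit family uncertain. Oasl1 and Ifit1 ran against the list, and with the replicate block 8 members were called higher at 4 h. Oasl1 was at 7.17 and 2.57 CPM at 2 h and 19.1, 102 and 14.6 CPM at 4 h (-3.14, SE 1.07, adjusted p = 0.032), and replicate 2 accounts for the highest of the 4 h values. Ifit1 was at 1.49 and 1.17 CPM and 3.56, 12.5 and 3.1 CPM (-2.27, adjusted p = 0.022), and again the second of the 4 h replicates was the highest. Neither call held without 4 h replicate 2 (adjusted p = 0.16 for Oasl1 and 0.11 for Ifit1) or without either 2 h replicate (0.085 and 0.18 for Oasl1, 0.11 and 0.11 for Ifit1), and the adjusted p of Ifit3 was 0.057 without 2 h replicate 2.

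Of 27 lysosomal genes tested, 8 were called higher at 2 h (29.6%) and 0 at 4 h, with a median of 0.46. The list as a whole stayed near DMEM, with median log2 fold changes from it of 0.28 at 2 h and -0.09 at 4 h. Lipa, the lysosomal acid lipase, was at 2055 and 1935 CPM in DMEM, 1455 and 1540.5 CPM at 2 h and 692, 529 and 538 CPM at 4 h (log2 fold change 1.35, SE 0.18, adjusted p = 6.2e-05). The proton pump genes Atp6v0d2 (1.48) and Atp6v1a (0.72), Scarb2 (0.79), Npc1 (0.64), Grn (0.53) and Hexa (0.52) were also called higher at 2 h. The median was 0.28 without 2 h replicate 3.

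Receptors and genes of resting macrophages were called higher at 2 h in 7 of 28 (25%) and higher at 4 h in 3 (10.7%, the share of all genes), with a median of 0.35. Gas6, a ligand of the receptor MERTK that helps to clear dying cells, was at 468 and 564 CPM in DMEM, 488 and 577 CPM at 2 h and 171, 177 and 187 CPM at 4 h (log2 fold change 1.58, SE 0.12, adjusted p = 5.8e-07). Its level at 2 h did not differ from DMEM beyond the thresholds, whereas Slc40a1, the iron exporter ferroportin, had dropped early, from 197 and 223 CPM in DMEM to 17 and 21.7 CPM at 2 h and 8.03, 4.21 and 4.27 CPM at 4 h. Mertk (1.25), Tgfbr2 (0.64) and C1qc (0.52) were higher at 2 h, and Tgfbr1 had a peak there (1.12 from DMEM at 2 h). Timd4 (-1.07) and the scavenger receptor Msr1 (-0.57) were among those higher at 4 h. Without 4 h replicate 2, 11 were called higher at 2 h.

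A trough at 2 h, with a return toward DMEM at 4 h, was found for 611 of the genes higher at 4 h, against 529 with a late rise. This order turned without 2 h replicate 2 (537 and 546), in a fit of only the samples compared (426 and 487) and beyond a log2 fold change of 1 (158 and 208). March1 (chr8:65617900-66471637), a ubiquitin ligase that removes MHC class II from the surface, was at 35.5 and 43.4 CPM in DMEM, 4.97 and 5.49 CPM at 2 h and 33, 25.9 and 36.3 CPM at 4 h (log2 fold change -2.61, SE 0.33, adjusted p = 5.2e-05). In CM without the drug its mean was 84.4 CPM. Lpar6 was at 5.52 and 2.45 CPM at 2 h and 18.5, 23.4 and 27.7 CPM at 4 h, and the potassium channel gene Kcnj2 at 6.04 and 8.58 and 27, 17.6 and 28.5 CPM, against 326 and 260.1 CPM in DMEM. Both stayed below DMEM at 4 h, so their return was partial. Sh3rf1 (-2.17), the mismatch repair gene Pms1 (-1.91), Ttc26 (-1.77) and 4931414P19Rik (-2.24) were also named in this pattern. The troughs were ranked by the smaller of the differences from 4 h and from DMEM. Chac1, Oasl1 and Ifit1, also troughs, are given with their lists. The adjusted p of Ttc26 was 0.063 without 2 h replicate 3.

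NRF2 targets, which defend against oxidants, were called higher at 4 h in 7 of 15 and higher at 2 h in 1, with a median of -0.50. Hmox1, heme oxygenase, was at 429 and 422 CPM in DMEM, 139.9 and 149.9 CPM at 2 h and 478, 378 and 439 CPM at 4 h (log2 fold change -1.57, SE 0.12, adjusted p = 5.8e-07). The 4 h samples were thus back at the DMEM level. Osgin1 (-1.76), the glutathione synthesis genes Gclm (-1.66) and Gclc (-1.13), Gsr (-1.05) and Abcc1 (-0.63) were also higher at 4 h, while the autophagy receptor gene Sqstm1 was higher at 2 h (0.99). Slc7a11, the cystine transporter, belongs to this list and to that of the stress response, and it was at 247 and 339 CPM at 2 h and 1288, 826 and 995 CPM at 4 h.

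Stress and unfolded protein response genes were higher at 4 h in 8 of 30 and at 2 h in 0, with a median of -0.38. Sesn2 was at 34.3 and 32.9 CPM in DMEM, 11.7 and 9.05 CPM at 2 h and 39, 30.2 and 34.4 CPM at 4 h (log2 fold change -1.72, adjusted p = 5.8e-07), and so it also had a trough at 2 h. Chac1 (-3.40, SE 1.09, adjusted p = 0.024) and Trib3 (-1.25) followed it at low levels, and the chaperone genes Hyou1 (-0.86), Creld2 (-0.79), Pdia4 (-0.71) and Manf (-0.61) were higher at 4 h. The call of Chac1 was lost without either 2 h replicate (adjusted p = 0.15 and 0.099) and without 4 h replicate 1 (0.097). Zinc finger genes whose symbol is Zfp and a number, most of which encode DNA-binding repressors, were higher at 4 h in 48 of 299. Of the list 6 were higher at 2 h, the median was -0.17, and 37 of the 48 had a trough at 2 h. In a fit of only the samples compared 30 were called higher at 4 h, and with scaling by total counts alone 3 were called higher at 2 h. Zfp446 was at 4.46 and 4.29 CPM in DMEM, 2.26 and 1.58 CPM at 2 h and 5.44, 5.35 and 5.59 CPM at 4 h (-1.47, adjusted p = 3.5e-05).

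Inflammatory effectors, meaning enzymes, proteases and acute-phase proteins, had the lowest median of the 24 lists, -1.17. Of 34 tested, 21 were higher at 4 h (61.8%) and 0 at 2 h, a smaller share than the 71.9% of the glycolysis and hypoxia list. Without 2 h replicate 2 the number called fell to 9. Saa3, serum amyloid A, was at 9.71 and 6.71 CPM in DMEM, 52.5 and 103 CPM at 2 h and 526, 553 and 934 CPM at 4 h (log2 fold change -3.12, SE 0.53, adjusted p = 0.00047). Ptges, the last enzyme of prostaglandin E2 synthesis, was at 5.29 and 3.52 CPM in DMEM, 98.4 and 119 CPM at 2 h and 560.5, 708 and 656 CPM at 4 h (log2 fold change -2.57, SE 0.22, adjusted p = 1.8e-06). Both genes were already above DMEM at 2 h and were severalfold higher again at 4 h.

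Ptgs2, the cyclooxygenase upstream of Ptges, went from a mean of 1371 CPM at 2 h to 3419 CPM at 4 h (-1.32), a smaller difference than that of Ptges. Thbs1, thrombospondin, was at 666 and 471 CPM at 2 h and 2404, 4919 and 2753 CPM at 4 h (-2.56). Lcn2 (-2.62), Hdc (-2.43), the clotting initiator F3 (-2.18), Mmp13 (-1.93), Acod1 (-1.41) and Has1 (-1.40) were among the others called. Arg1 (chr10:24915221-24927484), arginase, was at or below 3 counts in both 2 h samples and at 2.24, 15.3 and 4.73 CPM at 4 h (adjusted p = 0.0054). Against 3 counts in the shallower 2 h library its mean was at least 42.4-fold higher at 4 h, a bound that was 19.9-fold without 4 h replicate 2 and 89.6-fold without the shallower 2 h library, and in CM without the drug it was 31.1 CPM. Without 2 h replicate 2 its adjusted p was 0.058.

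Chemokines were higher at 4 h in 9 of 20 and at 2 h in 0, with a median of -0.77. Cxcl5, which attracts neutrophils, was at 4.47 and 3.68 CPM at 2 h and 46, 75.2 and 31.2 CPM at 4 h (log2 fold change -3.62, SE 0.44, adjusted p = 3.6e-05). Its relative Cxcl3 was at 270.5 and 202 CPM and 1127, 1503 and 984 CPM (-2.35, adjusted p = 0.00012). The DMEM levels were 0.148 and 0.0409 CPM for Cxcl5 and 1.71 and 0.654 CPM for Cxcl3, so both had begun to rise by 2 h. Ppbp (-3.24), Ccl3 (-1.75), Pf4 (-1.67), Ccl5 (-1.47), Ccl4 (-1.45), Cxcl14 (-1.08) and Ccl9 (-0.63) were the other 7.

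Glycolysis and hypoxia-response genes were late as a group, with 23 of 32 higher at 4 h, 2 higher at 2 h and a median of -1.04. Egln3 (chr12:54178981-54203860), an oxygen sensor that marks HIF proteins for decay, was at 1.95 and 2.62 CPM in DMEM, 1.55 and 1.58 CPM at 2 h and 17.7, 27.7 and 24.1 CPM at 4 h (log2 fold change -3.89, SE 0.29, adjusted p = 5.8e-07). Bnip3, a mitophagy receptor, was at 13 and 15.7 CPM in DMEM, 14.8 and 15.1 CPM at 2 h and 88.8, 119.9 and 86.7 CPM at 4 h (log2 fold change -2.73, SE 0.20, adjusted p = 5.8e-07). For both genes the 2 h samples had not left the DMEM level beyond the thresholds, whereas at 4 h both were called above DMEM. Ankrd37 was at 0.607 and 0.409 CPM at 2 h and 6.31, 5.95 and 5.75 CPM at 4 h (-3.48, adjusted p = 1.3e-06).

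The promoters of Bnip3, Egln3 and Ankrd37 are shown because these are the list members with the largest differences that hold the core ACGTG of a hypoxia response element, searched on both strands and given in capitals. They are RefSeq windows of GRCm38.p6 on the minus strand, at chr7:138909457-138909756, chr12:54203825-54204124 and chr8:45999801-46000100.
Bnip3: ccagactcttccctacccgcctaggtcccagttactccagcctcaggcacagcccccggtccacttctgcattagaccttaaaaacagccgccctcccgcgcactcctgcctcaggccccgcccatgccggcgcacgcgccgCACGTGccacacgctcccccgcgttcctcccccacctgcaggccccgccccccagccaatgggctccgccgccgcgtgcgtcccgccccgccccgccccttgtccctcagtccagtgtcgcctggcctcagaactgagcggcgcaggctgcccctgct
Egln3: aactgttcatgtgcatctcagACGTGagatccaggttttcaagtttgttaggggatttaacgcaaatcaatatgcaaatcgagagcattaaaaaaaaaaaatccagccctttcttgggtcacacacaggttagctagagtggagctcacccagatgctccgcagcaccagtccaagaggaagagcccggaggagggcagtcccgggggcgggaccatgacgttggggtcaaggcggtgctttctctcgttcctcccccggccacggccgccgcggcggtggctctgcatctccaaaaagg
Ankrd37: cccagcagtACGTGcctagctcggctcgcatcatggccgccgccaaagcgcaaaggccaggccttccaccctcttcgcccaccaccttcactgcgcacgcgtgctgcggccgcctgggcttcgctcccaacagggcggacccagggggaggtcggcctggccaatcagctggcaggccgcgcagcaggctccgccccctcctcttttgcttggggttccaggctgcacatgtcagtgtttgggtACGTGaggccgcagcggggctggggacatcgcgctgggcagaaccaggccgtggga
The core lies at -229 to -225 in Egln3, and in Ankrd37 at -241 to -237 and at -6 to -2. In Bnip3 the matches on the 2 strands overlap and form the E-box CACGTG at -108 to -103. The core is in 26.4% of all 9171 matched promoters, so it is common as well. This motif was added after the data were seen, and a match does not show binding.

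Among glycolytic enzymes Pfkfb3 was at 139 and 93.6 CPM at 2 h and 574, 688 and 435 CPM at 4 h (-2.28, adjusted p = 2.0e-05), followed by Pfkl (-2.11), Tpi1 (-1.43), Ldha (-1.31), Pgk1 (-1.28), Eno1 (-1.04), Pgam1 (-0.99), Hk2 (-0.82), Pkm (-0.67) and Aldoa (-0.65). The lactate exporter gene Slc16a3 (-1.75) and the glucose transporter gene Slc2a1 (-1.24) were higher at 4 h too. Several of these enzymes have near-identical pseudogenes, and fragments with several alignments were left out of the counts, so their levels are uncertain. Hif1a itself, outside the list, was at 559.6 and 593 CPM at 2 h and 1066, 1182 and 1063 CPM at 4 h (-0.94, adjusted p = 6.2e-05). Ndrg1 (1.67) and the second glucose transporter gene Slc2a3 (1.06) were the 2 members higher at 2 h, and Ndrg1 had a peak, with means of 129, 684 and 215 CPM in DMEM, at 2 h and at 4 h.

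Cholesterol synthesis genes were higher at 4 h in 8 of 21 and at 2 h in 1, with a median of -0.71. Mvd was at 14.4 and 13.9 CPM in DMEM, 20.3 and 11.7 CPM at 2 h and 41.8, 65.1 and 40.2 CPM at 4 h (log2 fold change -1.6, SE 0.26, adjusted p = 0.00038). Acat2 (-1.54), Fdft1 (-1.32), Lss (-1.18) and Stard4 (-0.98) were higher at 4 h, and Dhcr7 was higher at 2 h (0.97). For Mvd, Acat2 and Fdft1 replicate 2 was the highest of its group at both times, and with the replicate block 14 members of the list were called higher at 4 h. Of 9 targets of the sterol receptor LXR, 3 were higher at 4 h and 0 at 2 h, led by the desaturase gene Scd2 at 22.2 and 8.87 CPM at 2 h and 139.7, 238 and 84.1 CPM at 4 h (-3.27, SE 0.61, adjusted p = 0.00095), with Scd1 (-1.80) and Abca1 (-0.67). The number of cholesterol genes called higher at 4 h was 2 without 2 h replicate 3, 3 without 4 h replicate 2 and 5 without 4 h replicate 1. Without 2 h replicate 3 the adjusted p was 0.23 for Fdft1, 0.10 for Lss and 0.11 for Scd1.

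Clock genes were higher at 4 h in 4 of 12 and at 2 h in 0, or 1 with the replicate block. Ciart was at 0.855 and 1.46 CPM at 2 h and 5.63, 7.28 and 4.98 CPM at 4 h (-2.45, adjusted p = 0.00016), and Per2 (-1.65), Per1 (-1.04) and Arntl (-0.62) were the other 3. Per genes and Arntl normally run in opposite phase, but here they had the same sign. Without 2 h replicate 3 the list had 2 calls, with an adjusted p of 0.078 for Per1 and 0.12 for Arntl. Other late genes lay outside every list. Tmtc2 was at 1.32 and 1.69 CPM at 2 h and 28.9, 32.8 and 34.9 CPM at 4 h (-4.45, SE 0.28, adjusted p = 2.8e-07). Pecam1 (-3.60), Nt5e, which encodes the ectonucleotidase CD73 (-3.40), Syt7 (-3.36), Robo2 (-3.35) and U90926 (-3.14) were higher at 4 h by similar amounts at levels below 10 CPM. At 2 h Robo2 was at 0.083 and 0.292 CPM and U90926 at 0.221 and 0.117 CPM, where 3 counts are 0.083 and 0.175 CPM. Their fold changes therefore rest on few fragments.

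Several lists had few calls. Ribosome biogenesis genes were called in 1 of 37 at 2 h (Rrs1, 0.68) and 2 at 4 h (Polr1a, -0.71, and Dkc1, -0.62), with a median of -0.11. Cell cycle genes were called in 4 of 35 at 2 h, among them Ccnd1 (cyclin D1, 2.61) and Mcm6 (0.97), and 2 at 4 h, among them Tyms (-1.19), or 4 at 4 h with the replicate block. Of 14 heat shock genes Hspa1a was higher at 2 h (1.08, adjusted p = 0.044) and Hsph1 higher at 4 h (-0.79), and the block gave 2 at 2 h. Of 11 factors of mRNA decay Zc3h12a, which encodes the endonuclease Regnase-1, was higher at 2 h (0.53), and Cnot3 (-0.71) and Pnrc1 (-0.53) were higher at 4 h. Of 12 snoRNA hosts and other non-coding genes Mir17hg (1.04) and Snhg15 (0.61) were higher at 2 h. The calls of Rrs1, Dkc1, Mir17hg and Snhg15 were lost without 2 h replicate 3 (adjusted p = 0.16, 0.052, 0.15 and 0.10), that of Hspa1a without any of 4 samples (adjusted p = 0.094 to 0.19), and those of Zc3h12a and Pnrc1 fell below the fold change threshold without a sample. None of 10 mitochondrial mRNAs was called, and mt-Co1 had a log2 fold change of 0.12 (adjusted p = 0.42) and mt-Nd5 one of 0.08 (adjusted p = 0.55).

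**Figure D5:**
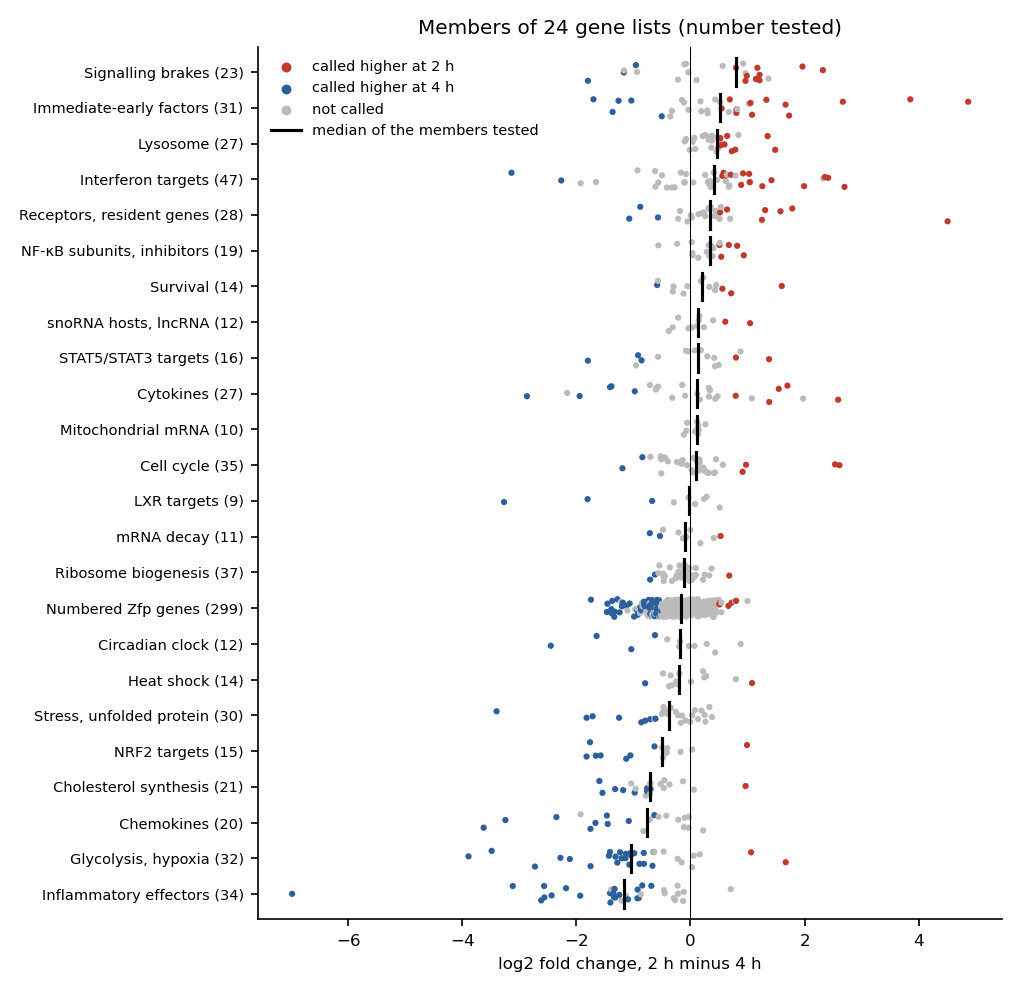
Each row is 1 of 24 gene lists with the number of its members tested, each point a member's log2 fold change, 2 h minus 4 h (horizontal axis), and the bar the median. The medians run from -1.17 for inflammatory effectors and -1.04 for glycolysis and hypoxia genes to 0.80 for signalling brakes.

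The called genes also differed in length, which the labels do not use. The median genomic span was 31.8 kb for genes higher at 2 h, 24.7 kb for genes higher at 4 h and 21.1 kb for all genes tested. Beyond a log2 fold change of 1 it was 37.3 kb for genes higher at 2 h and 20.7 kb for genes higher at 4 h, so the second value then lay below that of all genes. Among the patterns the span was longest for genes rising in both steps (35.5 kb) and for the late fall (34.3 kb) and shortest for the late rise (22.4 kb). Genes are not replicates, so these medians are given without a test.

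The summed markers of 3 other cell types moved with the labels, though not every marker did. The B cell list summed to 55.6 to 71.4 CPM at 2 h, 12.2 to 15.5 CPM at 4 h and 80.1 to 143.7 CPM in DMEM. Nearly all of it was Ighm, the constant region of immunoglobulin M, at 70.7 and 55.2 CPM at 2 h and 11.6, 14.8 and 12.2 CPM at 4 h. Pax5 was at 0 in all of these samples and Cd79a was at most 0.121 CPM. Cd79b overlapped between the labels, at 0.552 and 0.467 CPM at 2 h and 0.566, 0.484 and 0.254 CPM at 4 h. The dendritic cell list summed to 13.6 to 17.2 CPM at 2 h, 7.27 to 11.1 CPM at 4 h and 1.51 to 2.27 CPM in DMEM. Of it Zbtb46 was higher at 2 h, Ccr7 was not called between the labels, and Flt3 was at most 0.135 CPM. The fibroblast list summed to 22.1 to 30.7 CPM at 2 h, 31.8 to 33.9 CPM at 4 h and 22.6 to 29.9 CPM in DMEM. Of its 7 markers Pdgfrb, a growth factor receptor, was called higher at 4 h (-0.86, adjusted p = 0.004), with 9.74 and 11.9 CPM at 2 h and 21.6, 14.2 and 22.7 CPM at 4 h, while Col1a1 and Col1a2 overlapped between the labels and Lum was at 0 throughout. The part of such cells in the results was not tested.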

How the data were processed

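RNA of 16 BMDM samples in 6 groups was sequenced. The deposited table holds counts of fragments per gene for 55487 Ensembl identifiers, which the authors made with Trimmomatic 0.33, HISAT2 2.1.0 on GRCm38 and featureCounts 1.6.2. Their counting required both mates in reverse-stranded orientation and a mapping quality of 10 or more, and it skipped multi-mapping fragments. Multi-copy genes are therefore undercounted. Symbols were found for 55141 identifiers. Samples were grouped by condition, time and replicate in their labels. Depth was 18449388 to 46215853 fragments per sample.

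Counts were scaled by relative log expression and analysed by edgeR 4.0.16 (quasi-likelihood, R 4.3.3) in 1 model of all 6 groups without a replicate block. Same-numbered samples deviated together from their group means in every pair of groups that shares 3 numbers (r 0.17 to 0.63). Different numbers gave -0.42 to -0.04, which follows in part because deviations cancel within a group. The numbers thus go with a shared part of the spread, but the labels do not say what they mark. The 2 h and 4 h groups share only numbers 2 and 3 (r 0.35 for both). The 2 h and DMEM groups share only number 2, with r -0.0004. Counts with the block in this model are given where they differ by over 1.5 times. The script was tested on simulated data. Fold changes against a group with at most 3 counts in every sample are given as bounds, which cover counting error only. Alternatives were TMM, scaling by total counts, no filter, filterByExpr, a replicate block, only the samples compared, the likelihood ratio test, DESeq2 1.42.0, other thresholds and each sample left out. Summaries were made in Python 3.11.15 (numpy 2.4.6, pandas 2.3.3) and figures in matplotlib 3.10.9.

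The comparison, the 24 gene lists and the 9 marker lists were chosen with earlier results of these data known, so a list's direction is not independent evidence. Named are the 15 genes with the largest difference in each direction (mean of at least 1 CPM, no overlap) and up to 4 called members of each list. The 10 largest peaks and troughs, other members of lists and the alternatives for patterns were added after seeing the data. The size of a peak or trough was the smaller of its absolute log2 fold changes from 4 h and from DMEM. Some genes that these rules select are not reported here.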

Additional observations from a re-analysis of the deposited data

How the results depend on the processing

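The 2 h group has 2 samples, which limits every value. Of 115 called genes among those named, 76 kept their call under every alternative, of 18, in which they were tested. The other 39 lost it under at least 1, of which 26 did so other than through the threshold of 1, and 0 reversed. A few named genes fell below the filter on level without a 2 h replicate or in a fit of only the samples compared. They were not tested there, so those alternatives say nothing about their calls. A replicate block gave 1650 genes higher at 2 h and 1510 higher at 4 h, and shared 1480 of the 1556 and 1257 of the 1327 calls. Beside the list counts given with it in the report, it moved no count by over 1.5 times and ended no call of a named gene. A block within the 5 samples compared gave 8 and 9 cytokines higher at 2 h and 4 h, 16 cholesterol genes, 6 interferon targets, 5 STAT targets and 4 cell cycle genes higher at 4 h, 10 zinc finger genes, 2 heat shock genes and 2 decay factors higher at 2 h, and 1 each of the clock, LXR and effector lists higher at 2 h, and it ended the call of Dkc1 (adjusted p = 0.052). For 2 h against DMEM no block could be fitted within the samples compared, because they share 1 number only. Leaving out 1 sample gave 1217 to 1579 genes higher at 2 h and 1029 to 1321 higher at 4 h, 1907 to 2039 higher and 2063 to 2327 lower than DMEM at 2 h, and 2258 to 2552 higher and 2385 to 2795 lower than DMEM at 4 h. A fold change beyond 1 left 703 genes higher at 2 h and 466 higher at 4 h, 1151 above and 1201 below DMEM at 2 h, and 1249 above and 1518 below DMEM at 4 h. With no fold change threshold 2471 genes were higher at 4 h than at 2 h and 3822 above DMEM at 4 h. Scaling by total counts gave 1339 genes higher at 2 h and 1704 at 4 h, 1245 above and 4732 below DMEM at 2 h, and 1551 above and 4400 below DMEM at 4 h. With it the late fall held 568 genes and the pattern of falling in both steps 484. Shares of called genes with a promoter motif are not reported at any threshold, since only part of the genes matched a promoter.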
